A study of Mus musculus with 4 samples.

Results

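The transforming growth factor-β (TGF-β) genes of the mammary tumors were followed across 8 rows of the deposited count tables, chosen by gene symbol: the ligands Tgfb1, Tgfb2 and Tgfb3, the receptors Tgfbr1, Tgfbr2 and Tgfbr3, the matrix gene Tgfbi and the activin subunit gene Inhba. The tables list 32285 genes, and these 8 held 297883 of the 480870418 unique molecular identifiers (UMIs, each marking 1 captured RNA molecule) in the kept cells. The 4 single-cell libraries came from mammary tumors of mice at 17 to 18 weeks. Their titles number them as replicates 1 to 4, and each is taken here as 1 mouse, which the titles do not state. Replicates 1 and 3 had the genotype MMTV-Cre-; Frmd8 fl/fl; PyMT (Cre-) and replicates 2 and 4 the genotype MMTV-Cre+; Frmd8 fl/fl; PyMT (Cre+), so that all 4 mice carried the floxed Frmd8 alleles and the polyoma middle T oncogene. The MMTV promoter drives Cre in mammary epithelium, and the stromal and immune cells of Cre+ tumors are therefore not the cells in which the deletion was aimed. Cells had been sorted by flow cytometry before capture, and each genotype was represented by 2 libraries.

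TGF-β ligands are made as latent complexes that must be released before they act. The active ligand brings together a type II receptor (Tgfbr2) and a type I receptor (Tgfbr1), both of them kinases, and Tgfbr1 phosphorylates SMAD2 and SMAD3, while the co-receptor betaglycan (Tgfbr3) binds ligand and presents TGF-β2 in particular. Activin A is a dimer of Inhba chains and signals through its own receptors to the same SMADs. Tgfbi encodes a secreted matrix protein named for its induction by TGF-β. In mammary tumors the pathway is known for restraint of epithelial growth, activation of fibroblasts and suppression of immune cells.

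The windows just before the start sites of Tgfb1, Tgfb2 and Inhba are shown because these 3 ligand genes had unlike patterns over the cell classes. They are RefSeq sequences on GRCm38.p6, with 250 bases before the annotated start read 5′ to 3′ on the strand of the gene: chr7:25686752-25687001 on the plus strand for Tgfb1, chr1:186705990-186706239 on the minus strand for Tgfb2 and chr13:16011601-16011850 on the plus strand for Inhba. Capitals mark matches, on either strand, to the letters GGGCGG (a GC box), TATAAA (the core of a TATA box) and CAGAC (a SMAD box).
Tgfb1: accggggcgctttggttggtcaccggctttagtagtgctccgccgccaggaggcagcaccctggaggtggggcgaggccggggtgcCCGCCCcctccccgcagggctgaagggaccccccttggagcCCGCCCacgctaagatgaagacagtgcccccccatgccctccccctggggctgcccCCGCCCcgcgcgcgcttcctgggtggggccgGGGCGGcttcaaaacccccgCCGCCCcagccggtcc
Tgfb2: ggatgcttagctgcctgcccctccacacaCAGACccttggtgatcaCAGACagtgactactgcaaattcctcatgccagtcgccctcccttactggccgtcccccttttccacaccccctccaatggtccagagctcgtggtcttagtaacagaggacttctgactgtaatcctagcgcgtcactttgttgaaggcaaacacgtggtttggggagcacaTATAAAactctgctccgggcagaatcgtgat
Inhba: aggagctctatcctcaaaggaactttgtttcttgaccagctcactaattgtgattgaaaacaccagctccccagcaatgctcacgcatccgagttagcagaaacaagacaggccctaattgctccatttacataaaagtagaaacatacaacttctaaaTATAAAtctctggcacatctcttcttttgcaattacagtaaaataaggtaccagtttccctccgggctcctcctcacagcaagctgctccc
The Tgfb1 window held 5 GC boxes and no TATAAA, and its GC content was 75.2%, against a median of 52.4% over 32851 windows. The Tgfb2 window held TATAAA at positions -31 to -26 from the start and CAGAC at -221 and at -204. The Inhba window held TATAAA at -91 to -86, with a GC content of 43.2%. Over all windows, GGGCGG was found in 32.7%, CAGAC in 42.2% and TATAAA in 12.4%. Windows were found for 6 of the 8 genes, without Tgfb3 and Tgfbr3. In the GENCODE M21 annotation of GRCm38, matched by Ensembl identifier, Tgfb1 lies at chr7:25687002-25705077, Tgfb2 at chr1:186622792-186705989, Tgfb3 at chr12:86056745-86079041, Tgfbr1 at chr4:47353222-47414931, Tgfbr2 at chr9:116084293-116175360, Tgfbr3 at chr5:107106570-107289629, Tgfbi at chr13:56609523-56639562 and Inhba at chr13:16011851-16031621.

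The kept cells numbered 4922 to 7123 per library and 23572 in all, and they held 107848230 to 134882211 UMIs per library. Over all deposited barcodes the total depths were 112729231 to 157662955 UMIs per library. Any pair of libraries shared 6 to 16 barcodes of kept cells. Cre+ replicate 4 stood apart in how it was made: it was deposited with all barcodes and an earlier Cell Ranger version, and version, deposited form and genotype cannot be told apart for this library. Over all cells Frmd8 was at 25.1 and 24.7 CPM (UMIs of a gene per 1000000 UMIs) in Cre- replicates 1 and 3 and at 11.3 and 12.9 CPM in Cre+ replicates 2 and 4. A cell was assigned to 1 of 12 classes when it held at least 3 of the 8 markers of that class and at least 2 more than of any other, which left 13.3% of cells ungated. In each class its own marker list had the highest sum in every library, which follows largely from the gate on these same markers and is no independent check. The most foreign signal was in pericytes, which carried fibroblast markers at 1735, 2310 and 2326 CPM in Cre- replicate 1, Cre+ replicate 2 and Cre- replicate 3 and at 5699 CPM in Cre+ replicate 4, where their own markers were lowest, at 6759 CPM. Counts were summed per library and class, and 9 classes had enough cells in each library for a test. Each class was tested against the mean of the other 8 (edgeR quasi-likelihood test, Benjamini-Hochberg adjustment over 12708 genes, threshold 0.05). All 8 genes passed the filter on low counts there. Calls were repeated with each library left out, with RLE scaling, DESeq2, no filter, other gates, a minimum of 2000 UMIs, upper limits of 5000 genes and 30000 UMIs per cell, the mouse as a block, and a minimum of 10978 UMIs for Cre+ replicate 4 (the order-of-magnitude limit, a cell-calling threshold set from its deepest barcodes). A value after ± is the standard error of a log2 difference.

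The first question was which cells of the tumor held the RNA of each gene. Among the 9 tested classes, Tgfb1 levels were highest in monocytes, NK cells, endothelial cells and macrophages, and Tgfb2 levels in pericytes and epithelial cells. Tgfb3 levels were highest in fibroblasts, epithelial cells and pericytes. Tgfbr2 and Tgfbr3 peaked in fibroblasts, Tgfbr1 peaked in macrophages, and Tgfbi was highest in myeloid cells. Mast cells, 22 in all and too few for the test, had means of 267 CPM of Tgfbr1 and 335 CPM of Tgfbr2, on 15 UMIs each. Of the 72 tests (8 genes in 9 classes), 55 were called, 27 of them higher and 28 lower. This count stands against a high background. Of all genes, 57.0% were called in fibroblasts (33.3% higher, 23.8% lower), 55.4% in epithelial cells (34.0% and 21.4%), 49.4% in T cells (30.8% and 18.6%), 46.0% in pericytes (23.4% and 22.6%) and 44.6% in endothelial cells (25.2% and 19.4%). The shares were 42.2% in neutrophils (23.6% and 18.6%), 42.1% in macrophages (29.9% and 12.2%), 39.9% in monocytes (21.8% and 18.1%) and 34.9% in NK cells (18.5% and 16.4%). Of the 8 members, 8 were called in pericytes (4 higher), 7 in fibroblasts (5 higher), 7 in epithelial cells (3 higher), 7 in monocytes (3 higher), 6 in macrophages (4 higher), 6 in endothelial cells (4 higher), 6 in NK cells (1 higher), 5 in neutrophils (3 higher) and 3 in T cells (0 higher). Of the 55 called contrasts, 45 kept their call in every alternative fitted and none changed direction. Of the other 10, calls of lower levels in NK cells were lost without Cre+ replicate 4 for Tgfb2 (adjusted p = 0.21), Tgfbr3 (0.058) and Tgfbi (0.18), and for Tgfbi also without Cre- replicate 1 (0.10) or Cre+ replicate 2 (0.085). The call of lower Tgfbr3 in neutrophils was lost without Cre- replicate 1 (0.16) or Cre- replicate 3 (0.062).

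**Figure D1:**
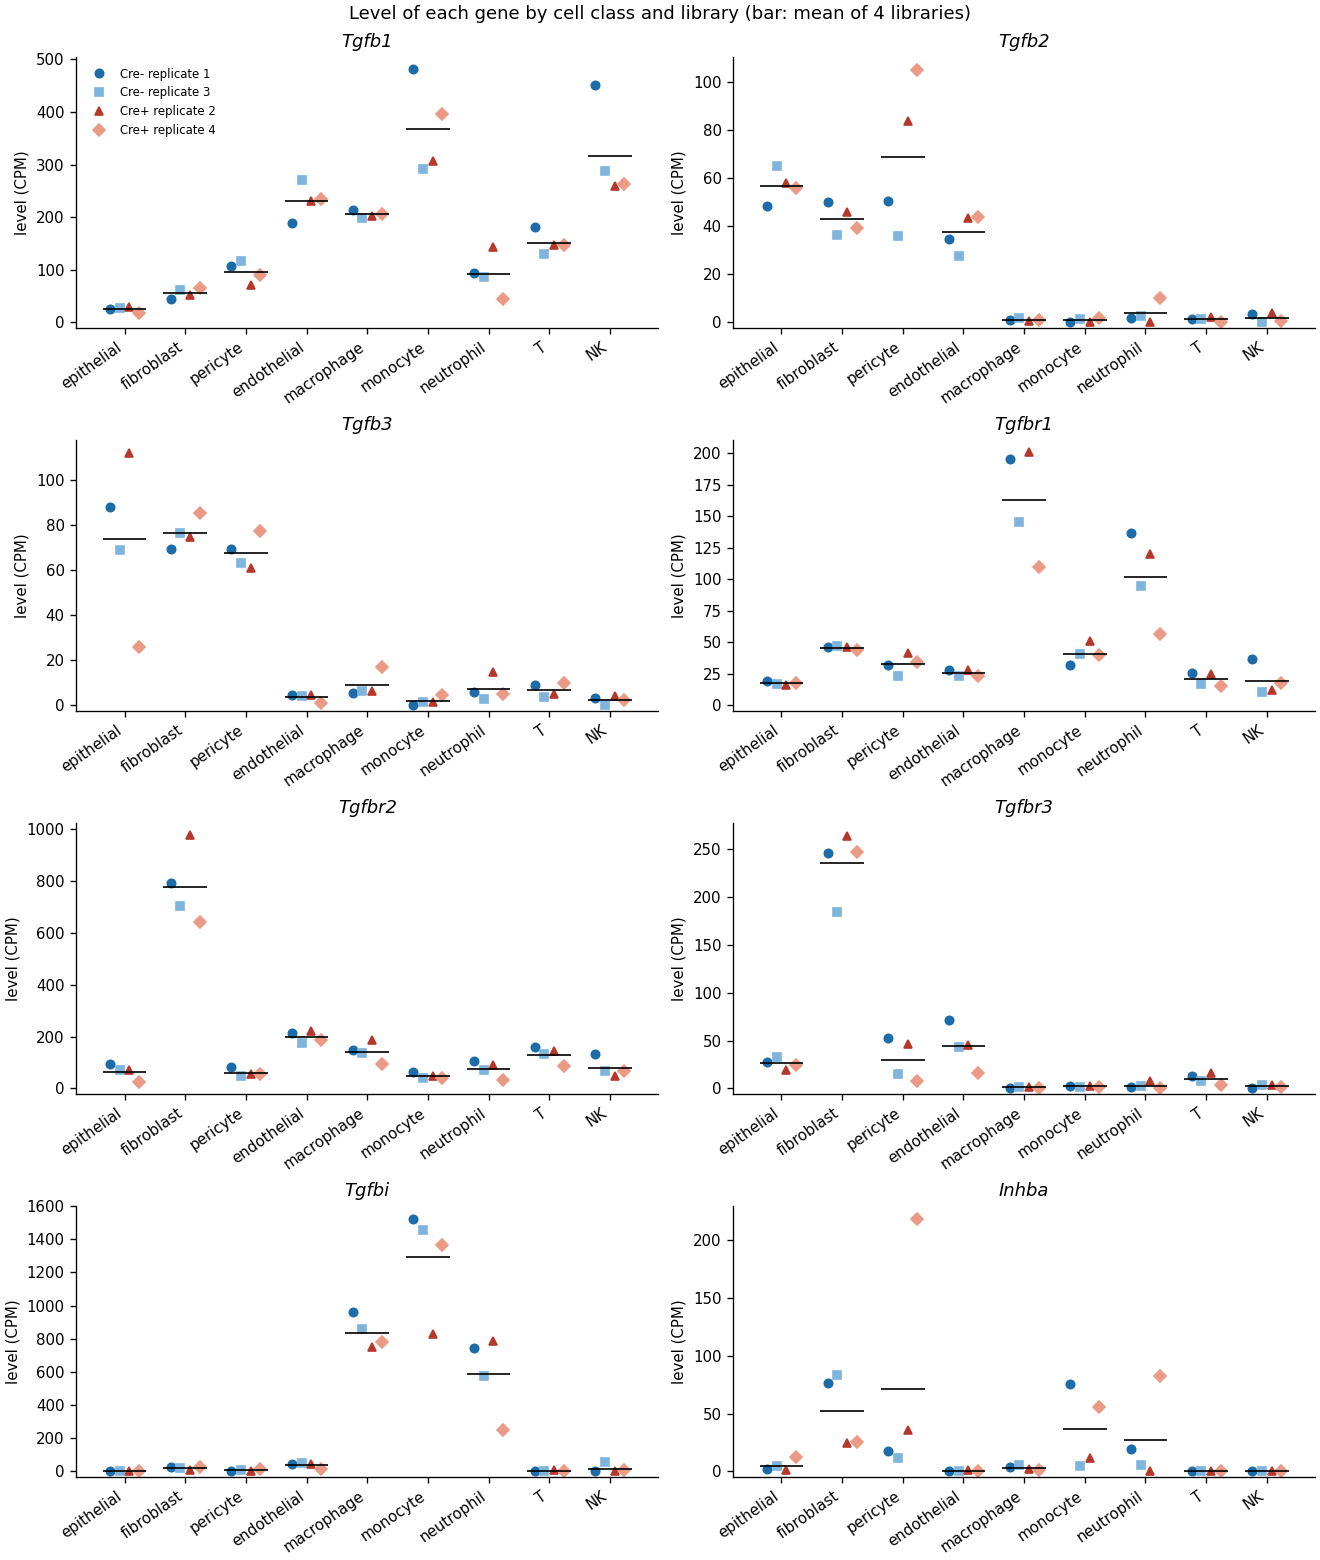
Level of each gene in CPM (linear axis) in the 9 tested cell classes, with 1 point per library (blue, Cre-; red, Cre+) and a bar at the mean of the 4 libraries. Tgfbr2 and Tgfbr3 stand highest in fibroblasts and Tgfbi in monocytes, macrophages and neutrophils. The Inhba points lie far apart within pericytes, monocytes and neutrophils.

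Tgfb1, the ligand that immune cells are known to make, was highest in monocytes. Their levels were 481 and 291 CPM in Cre- replicates 1 and 3 and 306 and 396 CPM in Cre+ replicates 2 and 4. NK cells were next at 260 to 451 CPM, followed by endothelial cells at 190 to 271 CPM and macrophages at 199 to 214 CPM. The ranges of neighbors in this order overlapped, while the macrophage range lay above that of T cells. Epithelial cells were lowest, with 26.1 and 28.0 CPM in the Cre- libraries and 29.0 and 17.2 CPM in the Cre+ libraries, below the lowest fibroblast library at 45.2 CPM. The log2 difference from the mean of the other classes was 1.90 ± 0.14 (adjusted p = 2.8e-13, edgeR) in monocytes and -2.83 ± 0.20 (adjusted p = 5.7e-14) in epithelial cells. NK cells (1.44 ± 0.15), macrophages (0.99 ± 0.14) and endothelial cells (0.73 ± 0.15) were also called higher, and fibroblasts (-1.36 ± 0.18), pericytes (-0.74 ± 0.18) and neutrophils (-0.48 ± 0.19, adjusted p = 0.042) lower. The neutrophil call was lost without Cre- replicate 1 (adjusted p = 0.067), without Cre- replicate 3 (0.13), without Cre+ replicate 4 (0.11) and under the upper limits on genes and UMIs (0.23). T cells, at 130 to 181 CPM, differed by 0.35 ± 0.15 (adjusted p = 0.061).

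Since cells differ in depth, the share of cells with a Tgfb1 UMI was taken after each cell had been thinned to 1000 UMIs. It was 23.4% to 35.9% of monocytes, 17.2% to 20.6% of macrophages and 2.13% to 3.08% of epithelial cells over the 4 libraries. Without thinning the last share was 23.7% to 40.0%. Macrophages were the larger source by number: they held 52.5% of all Tgfb1 UMIs in the kept cells and 21.1% of all UMIs, while epithelial cells held 17.5% of Tgfb1 and 57.7% of all UMIs.

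Tgfb2, a ligand known from epithelial and mesenchymal tissues, had its 4 highest levels in pericytes, epithelial cells, fibroblasts and endothelial cells. In epithelial cells it stood at 48.6 and 65.4 CPM in the Cre- libraries and at 58.0 and 56.0 CPM in the Cre+ libraries. Fibroblasts had 36.3 to 50.3 CPM, endothelial cells 27.7 to 44.1 CPM and pericytes 36.2 to 105 CPM. In the order of the means, the ranges of neighbors overlapped, while the epithelial range lay above the endothelial range. The mean of endothelial cells was 10.0 times that of the next class, neutrophils, whose levels ran from 0 to 10.3 CPM. Macrophages held 0.748 to 1.74 CPM and B cells none in any library. Pericytes (3.38 ± 0.23), epithelial cells (3.17 ± 0.21), fibroblasts (2.89 ± 0.22) and endothelial cells (2.41 ± 0.24) were called higher on the log2 scale, each with an adjusted p of 2.6e-10 or less. Epithelial cells held 82.4% of the Tgfb2 UMIs.

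Tgfb3, the third ligand, was shared by 3 classes. Fibroblasts had 69.4 to 85.6 CPM and pericytes 61.1 to 77.6 CPM. Epithelial cells had 88.3 and 69.3 CPM in Cre- replicates 1 and 3 and 112 and 26.1 CPM in Cre+ replicates 2 and 4, so the 2 Cre+ libraries were the highest and the lowest of the 4. The log2 difference was 3.05 ± 0.25 in fibroblasts, 2.80 ± 0.24 in epithelial cells and 2.59 ± 0.28 in pericytes, all called (adjusted p of 2.1e-09 or less). Below them came a step, pericytes having 7.65 times the mean of macrophages. In macrophages Cre+ replicate 4 stood apart, at 17.2 CPM against 5.67 to 6.33 CPM in the other 3 libraries. The barcodes of that library with at most 100 UMIs, which are mostly empty droplets, held Tgfb3 at 16.9 CPM. This value describes the make-up of the RNA in those droplets, not its amount in a cell. The same droplets held Tgfb2 at 14.7 CPM and Tgfbr3 at 13.6 CPM, while macrophages held at most 1.74 CPM of each in any library. How much droplet RNA added to the macrophage level of Tgfb3 was not tested. The mix of macrophages in Cre+ replicate 4 also differed, as given below. Endothelial cells, which shared Tgfb2 with these classes, held 1.08 to 4.79 CPM of Tgfb3 and were called lower (-1.96 ± 0.43).

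**Figure D2:**
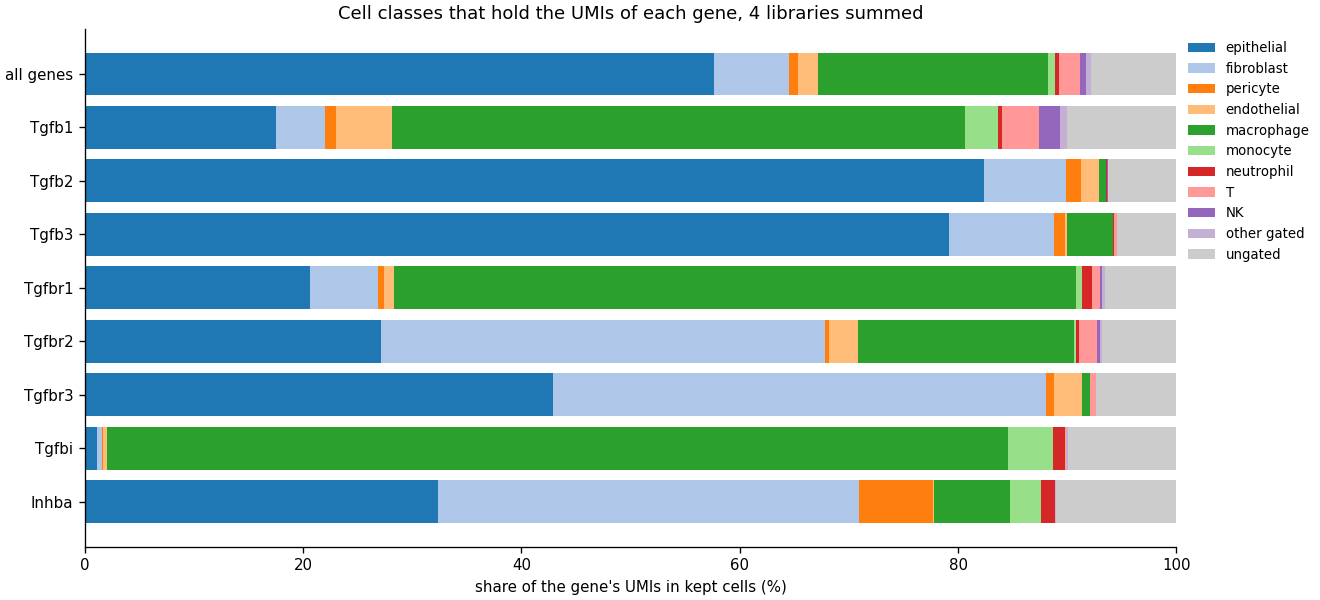
Share (%) of each gene's UMIs that each cell class held, with the 4 libraries summed; the top bar gives the share of all UMIs. Epithelial cells held 82.4% of Tgfb2 and 17.5% of Tgfb1, and macrophages 82.6% of Tgfbi and 62.5% of Tgfbr1.

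Among the receptors, Tgfbr2, the ligand-binding kinase, had a single peak, in fibroblasts. Fibroblasts stood at 792 and 703 CPM in the Cre- libraries and at 977 and 644 CPM in the Cre+ libraries. No library of another tested class was above 220 CPM, and the mean of fibroblasts was 3.91 times that of endothelial cells (174 to 220 CPM). The log2 difference was 3.14 ± 0.17 (adjusted p = 3.1e-17). After thinning, 41.1% to 58.0% of fibroblasts had a Tgfbr2 UMI, against 1.72% to 7.14% of pericytes, another mesenchymal class. Pericytes (-1.28 ± 0.25), monocytes (-1.22 ± 0.26) and epithelial cells (-1.09 ± 0.23) were called lower. The endothelial difference of 0.69 ± 0.20 (adjusted p = 0.0057) lost its call under the upper limits on genes and UMIs (0.081). The macrophage difference of 0.58 ± 0.20 (adjusted p = 0.020) lost its call without Cre+ replicate 2 (0.28), without Cre- replicate 3 (0.11), and under RLE scaling (0.087), DESeq2 (0.080) and the order-of-magnitude limit for Cre+ replicate 4 (0.056). With the mouse as a block, NK cells (-0.53, adjusted p = 0.044) and neutrophils (-0.58, adjusted p = 0.031) were also called lower.

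Tgfbr3, the co-receptor betaglycan, followed the same peak. Fibroblasts had 246 and 184 CPM in the Cre- libraries and 264 and 248 CPM in the Cre+ libraries. Endothelial cells were next at 16.1 to 71.9 CPM, and the ratio of the means was 5.32. The log2 difference in fibroblasts was 5.19 ± 0.23 (adjusted p = 2.5e-19). In endothelial cells and pericytes the libraries spread widely, and Cre+ replicate 4 was lowest in both, at 16.1 and 7.39 CPM. Endothelial cells (2.31 ± 0.29), pericytes (1.56 ± 0.35) and epithelial cells (1.46 ± 0.29) were called higher. Macrophages, at 0.727 to 1.74 CPM, were called lower by -3.13 ± 0.44, and B cells and dendritic cells held no Tgfbr3 UMI.

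Tgfbr1, the signaling kinase, had its peak elsewhere. Macrophages stood at 196 and 146 CPM in the Cre- libraries and at 201 and 110 CPM in the Cre+ libraries. Neutrophils followed at 56.8 to 137 CPM, with an overlap of the ranges, and no library of another tested class was above 50.8 CPM. Macrophages (2.54 ± 0.13, adjusted p = 5.1e-18) and neutrophils (1.72 ± 0.17, adjusted p = 2.1e-10) were called higher on the log2 scale. Fibroblasts, the class of the Tgfbr2 peak, were even across libraries, at 44.0 to 47.5 CPM, and their difference was 0.28 ± 0.15 (adjusted p = 0.12). It was called under RLE scaling (0.42, adjusted p = 0.016), DESeq2 (0.42, adjusted p = 0.0067) and the order-of-magnitude limit (0.55, adjusted p = 0.0015). Epithelial cells had the lowest mean of the tested classes, with 16.5 to 19.5 CPM, and were called lower (-1.42 ± 0.17). The pericyte call (-0.54 ± 0.18, adjusted p = 0.017) was lost in 7 alternatives, among them without Cre- replicate 1 (0.17), without Cre+ replicate 2 (0.056) and without Cre- replicate 3 (0.11).

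Tgfbi, the matrix gene, was a myeloid gene in these tumors. Monocytes had 1525 and 1456 CPM in the Cre- libraries and 826 and 1367 CPM in the Cre+ libraries. Macrophages had 749 to 961 CPM and neutrophils 248 to 790 CPM. Neighbors in this order overlapped, but the mean of neutrophils was 15.7 times that of endothelial cells, the next class. The log2 differences were 5.66 ± 0.27 in monocytes, 4.98 ± 0.27 in macrophages and 4.32 ± 0.29 in neutrophils (adjusted p of 3e-14 or less). Dendritic cells, too few for the test, had 81.2 to 277 CPM. After thinning, 44.7% to 51.1% of macrophages had a Tgfbi UMI, against 0% to 0.851% of T cells, which should lack the gene, and 0.414% to 1.15% of epithelial cells. Fibroblasts, with 7.20 to 27.5 CPM, were called lower (-1.35 ± 0.41, adjusted p = 0.0056), a call lost without Cre+ replicate 2 (0.060), without Cre- replicate 3 (0.057) and under the order-of-magnitude limit (0.10). In the empty droplets of Cre+ replicate 4, Tgfbi stood at 244 CPM, Tgfb1 at 111 CPM, Tgfbr2 at 39.5 CPM and Tgfbr1 at 38.3 CPM, above the levels of these 4 genes in epithelial cells of the same library (5.12, 17.2, 24.0 and 18.1 CPM). Tgfb3 (16.9 CPM), Tgfb2 (14.7 CPM), Tgfbr3 (13.6 CPM) and Inhba (6.62 CPM) were below their levels in those epithelial cells.

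Inhba, the activin A subunit, had the fewest UMIs of the 8, with 4370 in the kept cells, and it was uneven among libraries and among cells. Fibroblasts had 76.1 and 83.5 CPM in Cre- replicates 1 and 3 and 24.9 and 25.8 CPM in Cre+ replicates 2 and 4. Pericytes had 18.0 and 11.3 CPM in the Cre- libraries and 35.9 and 218 CPM in the Cre+ libraries. The 218 CPM came from Cre+ replicate 4, the library in which the pericytes carried fibroblast markers at 5699 CPM. The fibroblasts of that library held Inhba at 25.8 CPM, and the part of fibroblast RNA in the pericyte level was not tested. Monocytes ranged from 4.67 to 75.7 CPM, neutrophils from 0 to 82.6 CPM and epithelial cells from 1.01 to 12.6 CPM. NK cells and B cells held no Inhba UMI in any library, with 3 counts in the deepest NK library worth 1.71 CPM. Fibroblasts, pericytes, monocytes and neutrophils were called higher than the other classes (adjusted p of 2.6e-06, 4.7e-06, 0.00060 and 0.0096, edgeR). No fold is read from these tests, because the mean of the other classes includes classes at 0. The neutrophil call was lost without Cre+ replicate 4 (adjusted p = 0.074, edgeR). In that library neutrophils also carried epithelial markers at 2436 CPM, against 226 to 336 CPM in the other 3. Epithelial cells held at most 12.6 CPM of Inhba in a library, and the part of epithelial RNA in the neutrophil level was not tested.

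In some libraries a single cell carried most of the Inhba UMIs of a class other than fibroblasts. In Cre- replicate 3, 1 epithelial cell held 242 of the 294 Inhba UMIs of its class, and without it the level of 4.31 CPM became 0.763 CPM. In Cre- replicate 1, 1 monocyte held 27 of 28 UMIs, and the level without it was 2.79 CPM. The macrophages of Cre- replicate 3 held 151 Inhba UMIs, 119 of them in 1 cell. By contrast, 263 of the 2956 epithelial cells of Cre+ replicate 4 had an Inhba UMI, and its most loaded cell held 55 of 877. In fibroblasts the most loaded cell held 10.6% to 20.9% of the UMIs of a library. Their levels without that cell were 65.4 and 70.7 CPM in the Cre- libraries and 22.4 and 20.8 CPM in the Cre+ libraries, so the genotypes stayed apart. This level without the most loaded cell was added after the data had been seen, and no doublet caller was run.

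**Figure D3:**
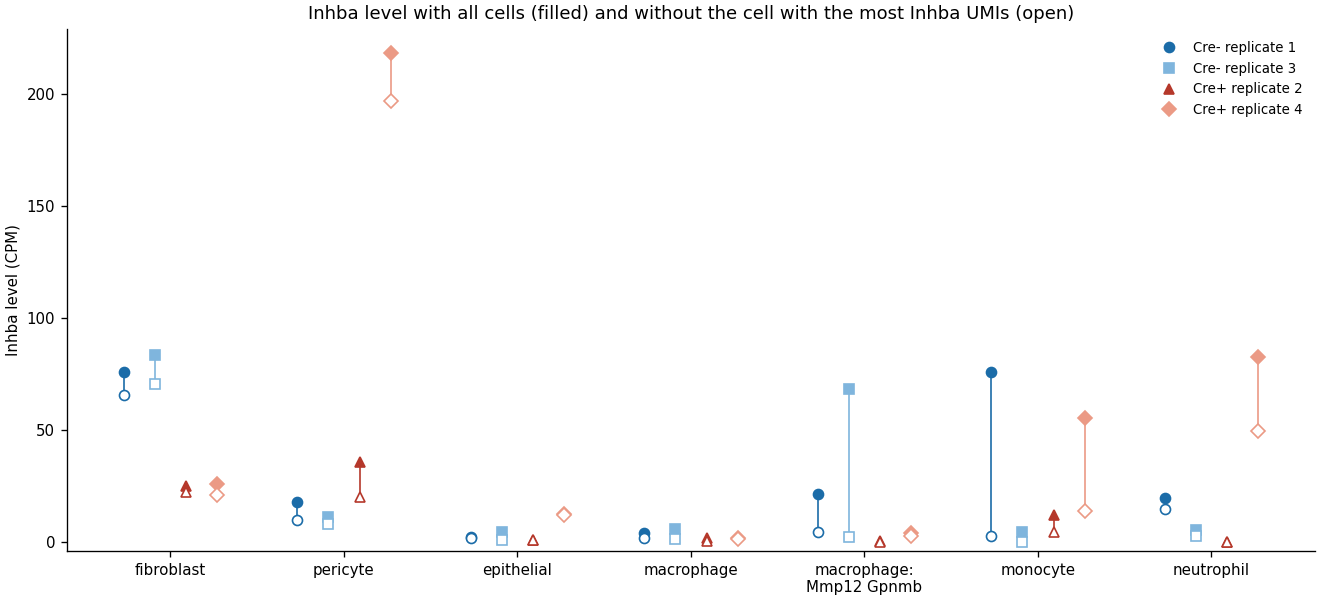
Inhba level (CPM) per library in 6 cell classes and in 1 macrophage subset, with all cells (filled) and without the single cell that held the most Inhba UMIs (open). The fibroblast levels of Cre- libraries lie above those of Cre+ libraries with and without that cell, whereas the Cre- levels of Mmp12 Gpnmb macrophages drop to 4.56 and 2.29 CPM.

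The classes were then divided by other markers to ask whether the genes followed known states. Fibroblasts with at least 2 of Pi16, Dpp4, Sema3c, Ackr3 and Limch1, genes of an adventitial, progenitor-like state, were set against the remaining fibroblasts. The receptors Tgfbr2 and Tgfbr3 were higher in the Pi16 Dpp4 fibroblasts, and the ligands Tgfb1, Tgfb3 and Inhba were lower. The other receptor and ligand were not called: Tgfbr1 had 37.6 to 45.9 CPM against 47.7 to 58.4 CPM in the remaining cells (-0.32 ± 0.12, adjusted p = 0.11), and Tgfb2 had 38.2 to 62.1 CPM against 30.8 to 48.7 CPM (0.38 ± 0.20, adjusted p = 0.29). Of all 10481 genes, 9.21% were called between the fibroblast subsets, 5.37% higher and 3.84% lower in the Pi16 Dpp4 cells. Tgfbr2 had 1070 and 809 CPM in Pi16 Dpp4 cells of the Cre- libraries and 1010 and 699 CPM in those of the Cre+ libraries, against 335 to 505 CPM in the remaining fibroblasts (log2 difference 1.14 ± 0.18, adjusted p = 0.0046). The 2 ranges did not overlap. Tgfbr3 had 204 to 330 CPM against 125 to 169 CPM (1.00 ± 0.16, adjusted p = 0.0055), without overlap, and the call was lost without Cre+ replicate 2 (adjusted p = 0.051).

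Tgfb3 had 43.4 to 78.1 CPM in the Pi16 Dpp4 fibroblasts and 103 to 147 CPM in the remaining ones (-0.87 ± 0.20, adjusted p = 0.021). Tgfb1 had 25.6 to 59.0 CPM against 72.8 to 97.3 CPM (-0.83 ± 0.23, adjusted p = 0.049). Inhba had 22.2 and 65.8 CPM in the Pi16 Dpp4 cells of the Cre- libraries and 21.3 and 17.7 CPM in those of the Cre+ libraries, and 152, 136, 76.7 and 71.7 CPM in the remaining cells in that order (-1.79 ± 0.42, adjusted p = 0.025). In every library these 3 ligands were lower in the Pi16 Dpp4 cells, and the subset ranges did not overlap. These 3 calls were close to the threshold. The Tgfb3 call was lost without Cre+ replicate 2 (0.10) or Cre- replicate 3 (0.081), and the Inhba call without Cre- replicate 1 (0.17) or Cre+ replicate 2 (0.095). The Tgfb1 call was lost without Cre+ replicate 2 (0.16), Cre- replicate 3 (0.19) or Cre+ replicate 4 (0.064), with a minimum of 2000 UMIs (0.053) and under the order-of-magnitude limit (0.085).

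**Figure D4:**
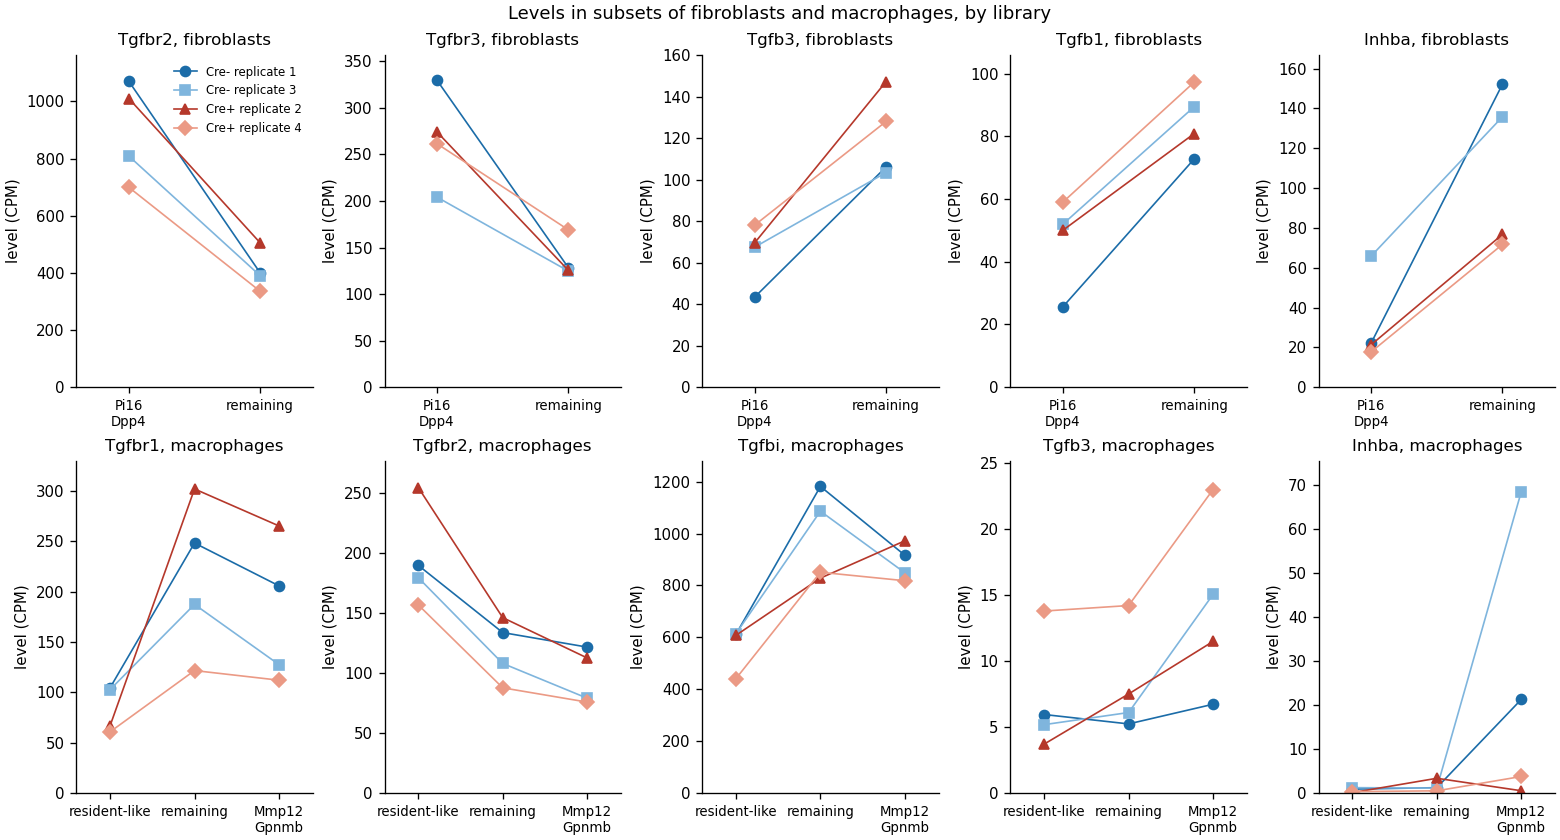
Level (CPM, linear axes from 0) in subsets of fibroblasts (top) and macrophages (bottom), with 1 line per library (blue, Cre-; red, Cre+). In all 4 libraries Tgfbr2 and Tgfbr3 were higher in Pi16 Dpp4 fibroblasts while Tgfb1, Tgfb3 and Inhba were lower, and Tgfbr1 and Tgfbi were lowest in resident-like macrophages.

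Macrophages with at least 2 of Folr2, Lyve1, Cd163, Timd4, Cbr2 and F13a1, markers of tissue-resident macrophages, were called resident-like, and those with at least 2 of Mmp12, Gpnmb, Mmp13 and Arg1 were kept under the names of their leading genes. Tgfbr1 and Tgfbi were lower in the resident-like cells and Tgfbr2 was higher, so that the receptors moved in opposite directions. Of the 11667 genes tested, 20.4% were called in the resident-like cells (12.1% higher, 8.33% lower) and 4.1% in the Mmp12 Gpnmb cells (2.54% and 1.56%). Tgfbr1 had 105 and 103 CPM in resident-like cells of the Cre- libraries and 66.9 and 60.8 CPM in those of the Cre+ libraries. The remaining macrophages had 122 to 302 CPM, and the difference from the mean of the other subsets was -1.36 ± 0.28 (adjusted p = 0.0044). Tgfbi had 441 to 615 CPM in the resident-like cells against 828 to 1181 CPM in the remaining ones (-0.86 ± 0.12, adjusted p = 0.00040). Tgfbr2 had 157 to 254 CPM against 87.7 to 146 CPM (0.73 ± 0.17, adjusted p = 0.0077), higher in 4 of 4 libraries, and the call was lost without Cre- replicate 3 (adjusted p = 0.059).

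Blocking on the mouse, which pairs subsets of the same animal, moved the count of called genes from 2380 to 4439 in the resident-like cells and from 478 to 1683 in the Mmp12 Gpnmb cells. With the block, Tgfb1 (-0.25, adjusted p = 0.0080) and Tgfb3 (-0.80, adjusted p = 0.0064) were also called lower in the resident-like cells. In the Mmp12 Gpnmb cells, Tgfb3 (0.97, adjusted p = 0.0082) and Tgfbi (0.35, adjusted p = 0.026) were called higher and Tgfbr2 lower (-0.56, adjusted p = 0.00085). In the edgeR fit without the block these 5 differences were not called. Inhba was called higher in the Mmp12 Gpnmb cells (4.53 ± 0.84, adjusted p = 0.010), a call lost without Cre- replicate 1 (0.085) or Cre- replicate 3 (0.17). It rested on 2 cells, which held 30 of 38 UMIs in Cre- replicate 1 and 119 of 123 in Cre- replicate 3. Without those cells the levels were 4.56 and 2.29 CPM in the Cre- libraries and, likewise without the most loaded cell, 0 and 2.68 CPM in the Cre+ libraries. The Inhba call in resident-like cells (-3.23, adjusted p = 0.048) was lost in 6 alternatives, among them without Cre- replicate 1 (0.15), Cre+ replicate 2 (0.12) or Cre- replicate 3 (0.11).

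In T cells and epithelial cells no member was called between subsets without the block. Regulatory T cells (at least 2 of Foxp3, Il2ra, Ctla4 and Ikzf2), known for TGF-β1 on their surface, had 226 and 146 CPM of Tgfb1 in the Cre- libraries and 238 and 215 CPM in the Cre+ libraries, against 114 to 131 CPM in CD8 T cells. The differences from the mean of the other subsets were 0.46 ± 0.16 (adjusted p = 0.20) in regulatory and -0.53 ± 0.16 (adjusted p = 0.11) in CD8 T cells. They became 0.45 (adjusted p = 0.027) and -0.52 (adjusted p = 0.0075) with the mouse as a block, which moved the called genes from 157 to 563 and from 184 to 687. Among the T cell genes tested, 2.33% and 2.73% were called in these 2 subsets without the block. Tgfb3 in epithelial cells had 34.0 to 127 CPM in basal cells (at least 3 of 8 markers such as Krt5 and Trp63) and 34.7 to 70.3 CPM in hormone-sensing cells (at least 3 of 8 markers such as Esr1 and Prlr). It was called higher in basal cells (0.64, adjusted p = 0.048) and lower in hormone-sensing cells (-0.90, adjusted p = 0.019) with the block, which moved the called genes from 15 to 180 and from 70 to 521 of 13322. Without it 0.113% and 0.525% of genes were called. Cre+ replicate 4 held 7 hormone-sensing cells.

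The second question was whether the genes differed between Cre+ and Cre- tumors. No member was called in any class. Of the 72 pairs of gene and class, 54 passed the filter on low counts, and 4 had an unadjusted p under 0.05. The background was as low: 0.0% of genes were called over all cells and in 8 of the 9 classes (edgeR), and 0.0106% in T cells, 1 of 9444. Over all genes, the number with an unadjusted p under 0.05 was 129 in NK cells to 771 of 12594 in fibroblasts. DESeq2 called 2 to 81 genes per class, most in fibroblasts. With 2 libraries against 2, an exact permutation test cannot go below 0.333, so none is given.

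**Figure D5:**
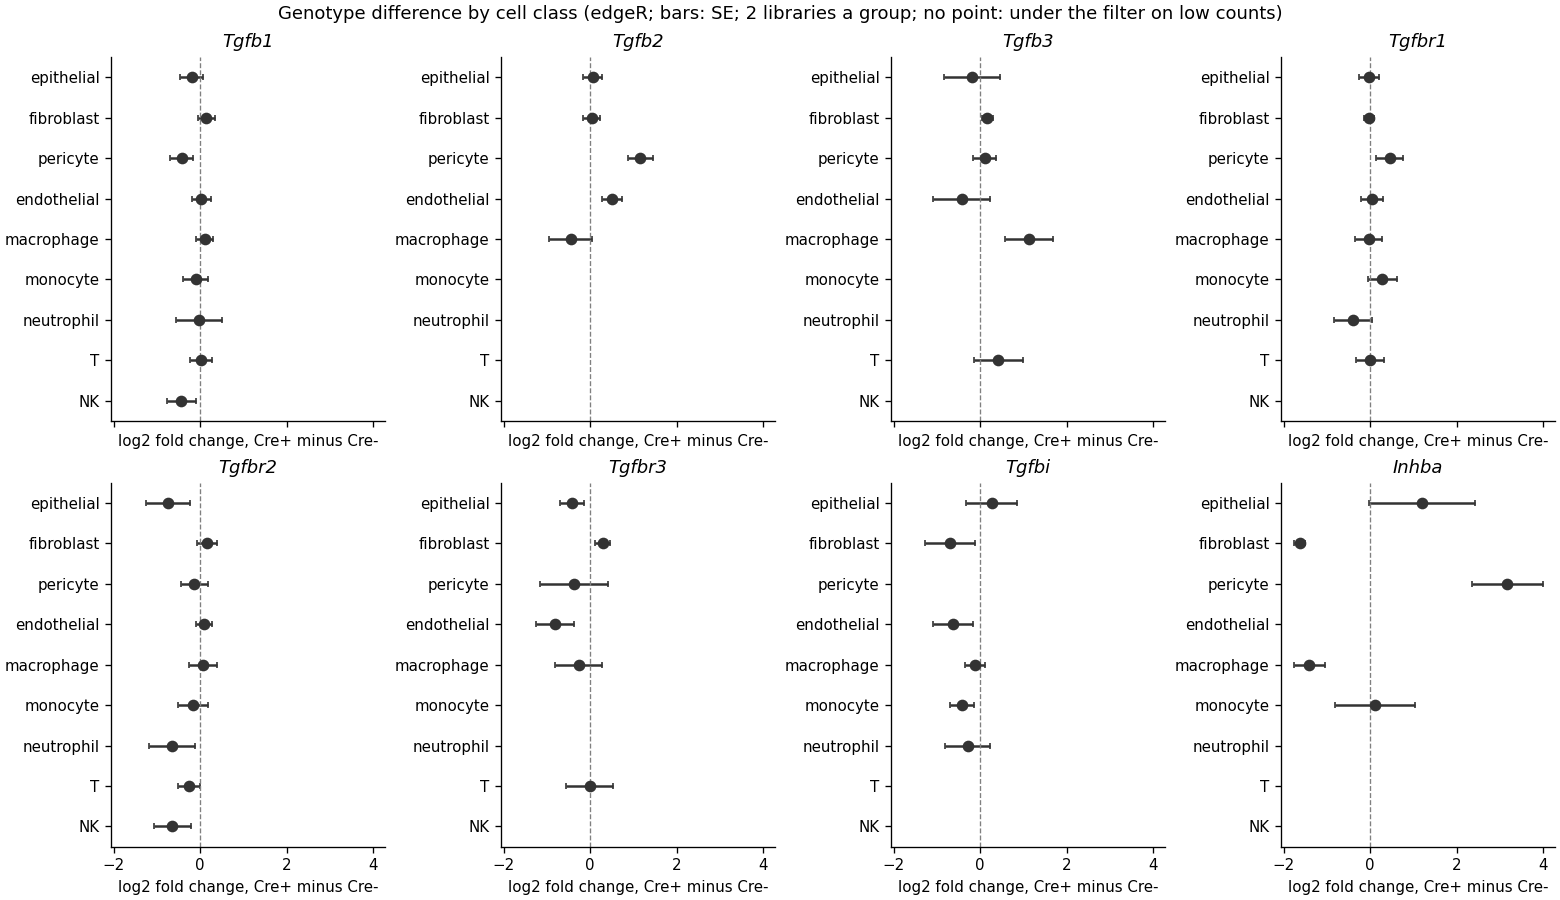
Log2 fold change of Cre+ against Cre- libraries for each gene and class (edgeR, points; bars, SE; 2 libraries per group). A class without a point was under the filter on low counts. No difference passed the threshold, the nearest being Inhba in fibroblasts.

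Inhba in fibroblasts came closest. Cre+ fibroblasts had 24.9 and 25.8 CPM and Cre- fibroblasts 76.1 and 83.5 CPM, with no overlap. The log2 fold change was -1.62 ± 0.13 (adjusted p = 0.096 over 12594 genes, edgeR). DESeq2 and the fit without a filter called more of all fibroblast genes than the main fit, as counted in the last section. For Inhba, DESeq2 gave -1.62 with an adjusted p of 4.4e-08, and the fit without a filter also called it (adjusted p = 2.3e-18). In the other alternatives it was not called, and without 1 library it ran from -1.69 (adjusted p = 0.23, without Cre- replicate 1) to -1.55 (adjusted p = 0.091, without Cre- replicate 3). The share of fibroblasts with an Inhba UMI was 23.8% and 19.7% in the Cre- libraries and 14.1% and 12.1% in the Cre+ libraries, without thinning. Such shares also vary with the depth of the cells. After thinning, the share was 0% to 4.10% over the 4 libraries. The mix of fibroblasts also differed between these libraries. Of the Cre- fibroblasts 62.3% and 62.9% were Pi16 Dpp4 cells, the subset with the lower Inhba level, against 85.0% and 76.6% of the Cre+ fibroblasts. Neither this difference in mix nor its part in the Inhba level was tested. Within the remaining fibroblasts the fold change was -0.90 ± 0.20 (adjusted p = 0.76), with 152 and 136 CPM in Cre- and 76.7 and 71.7 CPM in Cre+ libraries. Within the Pi16 Dpp4 fibroblasts it was -1.16 ± 0.48 (adjusted p = 1.0), and the ranges did not overlap, though 22.2 CPM in Cre- replicate 1 lay close to 21.3 CPM in Cre+ replicate 2. These comparisons within subsets were added after the data had been seen. Inhbb, another activin chain, was named after its values were seen. It stood at 37.7 and 31.8 CPM in Cre- and 14.7 and 15.8 CPM in Cre+ fibroblasts (-1.16 ± 0.16, adjusted p = 0.28, edgeR). Its difference was -1.12 in Pi16 Dpp4 and -0.11 in the remaining fibroblasts.

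The other 3 tests with an unadjusted p under 0.05 were Inhba in macrophages and pericytes and Tgfb2 in pericytes. Macrophage Inhba was at 3.80 and 5.97 CPM in Cre- and 1.78 and 1.65 CPM in Cre+ libraries, with no overlap (-1.41 ± 0.36, adjusted p = 1.0, edgeR). The Cre- levels include 1 cell with 119 of the 151 macrophage Inhba UMIs of Cre- replicate 3. In Cre- replicate 1, 1 Mmp12 Gpnmb cell held 30 UMIs. The genotype difference in macrophages without these cells was not tested. Under the upper limits on genes and UMIs the difference was 0.72. In pericytes the Inhba fold change was 3.17 ± 0.82 (adjusted p = 0.99, edgeR), with 236 of the 296 UMIs in Cre+ replicate 4. Without Cre+ replicate 2 it was 3.94. It was called without a filter (3.15, adjusted p = 3.8e-15, edgeR). That fit called many more of all pericyte genes than the main fit, as counted in the last section. Tgfb2 in the pericytes was higher in both Cre+ libraries, at 83.8 and 105 CPM against 50.5 and 36.2 CPM (1.16 ± 0.29, adjusted p = 0.99, edgeR). This difference was also called in the fit without a filter (adjusted p = 0.041, edgeR). It ran from 0.92 to 1.42 when 1 library was left out. Under the upper limits on genes and UMIs it turned to -0.059. In the Mmp12 Gpnmb macrophages Inhba differed by -3.81 ± 0.64 (adjusted p = 0.25), on the 2 cells named above. Of all 8898 genes tested there, 0.0% were called in the main fit. Inhba was called there without a filter. The share of all genes called in that fit is not given here, so this call is not read. In epithelial cells, the cells targeted by Cre, Tgfbr2 had 93.4 and 70.4 CPM in Cre- and 72.9 and 24.0 CPM in Cre+ libraries (adjusted p = 1.0), and the low value was that of Cre+ replicate 4. Macrophage Tgfb3 was likewise higher in Cre+ replicate 4 alone, and its difference of 1.13 ± 0.55 (adjusted p = 1.0) became 1.69 when that library was the only Cre+ library left in the fit. The level there was 17.2 CPM, and the empty droplets of the same library held Tgfb3 at 16.9 CPM. Those droplets also held Tgfb2 at 14.7 CPM and Tgfbr3 at 13.6 CPM, while macrophages held at most 1.74 CPM of each in any library. How much droplet RNA added to the macrophages of Cre+ replicate 4 was not tested. Their mix differed too, with 26.6% Mmp12 Gpnmb and 12.2% resident-like cells. The other libraries had 5.28% to 9.34% and 29.6% to 42.4%. Over the 4 libraries, Tgfb3 had a mean of 14.1 CPM (6.73 to 23.0) in Mmp12 Gpnmb cells and 7.16 CPM (3.71 to 13.8) in resident-like cells. The part of this mix in the Tgfb3 level was not tested. Over all cells, Tgfbr2 had 142 and 144 CPM in Cre- and 231 and 63.5 CPM in Cre+ libraries. Fewer cells of a type and less RNA per cell cannot be told apart in such sums alone. By class, Cre+ fibroblasts had 977 and 644 CPM. Cre+ replicate 2 held 441 Pi16 Dpp4 and 78 remaining fibroblasts among 5609 cells, and Cre+ replicate 4 held 95 and 29 among 7123. The part of each in the sums was not tested. Whether the genotype difference of a class differed from that in epithelial cells was tested after the data had been seen, and 0 of 64 member tests were called (lowest adjusted p = 0.76, 1 with an unadjusted p under 0.05, edgeR).

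Other genes of the pathway were described by 5 lists with 39 symbols, of which Ctgf is not in the tables, where this gene is listed as Ccn2. In fibroblasts, target genes of TGF-β were called higher in 6 of 6 cases tested, against 33.3% of all genes. Their median log2 difference was 4.99 (a fitted value that counts Cdkn2b, at 0 in monocytes), against 0.02 over all genes. Postn, a matrix protein of activated fibroblasts, differed by 7.64, the growth factor-like Ccn2 by 5.41 and fibronectin (Fn1) by 5.11. In pericytes 5 of 6 target genes were called higher, against 23.4% of all genes. In NK cells 5 of 6 (16.4% of all genes) and in T cells 4 of 6 (18.6% of all genes) were called lower. In macrophages 3 of 6 were called higher, Fn1 (2.35) among them, and 2 lower, Ccn2 (-1.89) among them. The shares of all genes there were 29.9% and 12.2%.

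The genes of latency and activation divided by class. Of the 10 tested, 7 were called higher and 1 lower in fibroblasts, against 33.3% and 23.8% of all genes. The higher ones included the latent TGF-β binding proteins Ltbp1 (6.06), Ltbp4 (4.73) and Ltbp2 (a mean of 147 CPM). In epithelial cells 5 were called higher and 3 lower, against 34.0% and 21.4% of all genes. The higher ones included both integrin chains of complexes that activate latent TGF-β, Itgb6 at a mean of 11.9 CPM and Itgb8 at 21.3 CPM. Itgb8 was also called higher in T cells (adjusted p = 0.0010, edgeR). No fold is given for Ltbp2, Itgb6, Itgb8, Lrrc32, Smad6 or Fst, each at 0 in at least 1 class. Nrros, which holds latent TGF-β1 on myeloid cells, was called higher in monocytes (4.39) and macrophages (3.70) and lower in epithelial cells (-4.42). Lrrc32, its counterpart on regulatory T cells and platelets, was called higher in endothelial cells (a mean of 76.0 CPM) and pericytes (60.6 CPM).

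Among activin receptors, co-receptors and antagonists, 9 of 10 passed the filter. The activin antagonists were also high in fibroblasts: follistatin (Fst) had a mean of 230 CPM there, against 8.40 CPM in epithelial cells, and Fstl3 differed by 3.60. Endothelial cells held the TGF-β co-receptor endoglin (Eng) at a mean of 754 CPM (6.87) and Acvrl1 at 137 CPM (3.30). Of the 9 genes, 6 were called higher and 2 lower there, against 25.2% and 19.4% of all genes. Inhbb, another activin chain, had its highest mean in endothelial cells, at 223 CPM (5.82), where Inhba was 0 in 3 of 4 libraries. Among SMADs and their regulators, the inhibitory Smad7 was higher in T cells (2.03) and NK cells (1.42), and the inhibitory Smad6 in endothelial cells, at a mean of 23.8 CPM against 7.70 CPM or less in the other classes. No gene of the 5 lists was called between the genotypes in any class.

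The genes most like each member over the 36 sums of 9 classes and 4 libraries were read from the correlation of log levels over 12588 genes, a description in which the points share libraries and cells. Tgfb1 was closest to Capzb, Tmsb4x and Tln1 (Pearson r = 0.90, 0.87 and 0.87), Tgfb2 to Fermt2, Cfl2 and Yap1 (0.96, 0.95 and 0.95), and Tgfb3 to Irak1bp1, Rab34 and Rsph9 (0.92, 0.90 and 0.89). Tgfbr1 was close to Clcn7 and Sgpl1 (0.89 and 0.86), Tgfbr2 to Abi3bp, Ces2g and Ccn3 (0.88, 0.85 and 0.85), and Tgfbr3 to Prickle1, Heg1 and Sned1 (0.90, 0.88 and 0.87). Tgfbi was closest to Dok3, Sgk3 and Spi1 (0.94, 0.93 and 0.93). Inhba had the weakest likeness of the 8, with Ugp2, Lrp1 and Tnfaip6 (0.79, 0.78 and 0.77).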

How the data were processed

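Mouse tumors were profiled with 10x Genomics 3′ v3 libraries, each taken here as 1 mouse. The deposited values are whole UMI counts for every gene in every barcode, made by the authors with Cell Ranger 6.1.2 (replicates 1 to 3, called cells) and Cell Ranger 4 (replicate 4, all barcodes) per the file headers. The submitters' processing notes name the build hg38, while the identifiers are mouse; the mouse build is not given in the sources used here.

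Barcodes with at least 1000 UMIs and at most 20% mt- UMIs were kept, gated on markers (3 of 8, margin 2) and summed per library and class; doublets were handled by the margin alone. CPM are UMIs per 1000000 of these sums. Sums were tested with edgeR 4.0.16 (quasi-likelihood, TMM, filterByExpr, Benjamini-Hochberg), in classes with at least 20 cells in each library. An SE is the log2 fold change over the root of the F statistic. Alternatives were DESeq2 1.42.0, RLE scaling, no filter, gates of 2 or 4 markers, 2000 UMIs, a limit of 10978 UMIs for Cre+ replicate 4, an upper limit of 5000 genes and 30000 UMIs, each library left out and the mouse as a block. Shares used cells thinned to 1000 UMIs unless stated otherwise. The floor of 3 counts covers counting error only. Sums of 1 mouse are paired by the animal: their deviations from class means correlated with a median of 0.18 within a mouse (range -0.10 to 0.68) and -0.05 between mice, over 3492 genes. The named genes were the 8 members, Frmd8, in each list up to 3 called pathway genes with the largest log2 difference per class, and the 3 genes most correlated with each member; some of these are not reported here. Members and lists were chosen with earlier results of these data known. The genotype test in fibroblasts and the class test of macrophages were also run on simulated counts, with an outcome not reported here. Those counts were drawn without a mouse effect, so they cannot show how the tests behave under the pairing given above. R 4.3.3 and Python 3.11.15 were used.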

Additional observations from a re-analysis of the deposited data

How the results depend on the processing

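No paired analysis was possible for the genotype because the groups share no replicate number. In its place, the mouse as a replicate block was used for classes and subsets of the same animals. Leaving out a library left 1 library in a genotype, which is then assumed to vary like the other group. Called genes between genotypes then ran from 4 to 34 in NK cells, 15 to 695 in T cells, 0 to 2 over all cells, 0 to 238 in endothelial cells, 0 to 19 in epithelial cells, 1 to 20 in fibroblasts, 0 to 1286 in macrophages, 0 to 57 in monocytes, 0 to 423 in neutrophils and 0 to 585 in pericytes. DESeq2 called 2 genes in NK cells, 3 in T cells, 30 over all cells, 6 in endothelial cells, 65 in epithelial cells, 81 in fibroblasts, 17 in macrophages, 2 in monocytes, 4 in neutrophils and 2 in pericytes. Without a filter the counts were 89 in NK cells, 104 in T cells, 189 in endothelial cells, 621 in fibroblasts, 24 in macrophages, 33 in monocytes, 135 in neutrophils and 158 in pericytes, and the order-of-magnitude limit left 0 in T cells. The cause was not tested.

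For subsets, leaving out a library gave 43 to 495 called genes in CD8 T cells, 34 to 390 in regulatory T cells, 0 to 19 in basal, 0 to 194 in hormone-sensing, 291 to 1202 in Pi16 Dpp4, 81 to 493 in Mmp12 Gpnmb and 1154 to 2809 in resident-like cells. With the replicate block they were 687, 563, 180, 521, 1683 (Mmp12 Gpnmb) and 4439 (resident-like). Without a filter they were 545, 453, 27 and 137 in CD8, regulatory, basal and hormone-sensing cells, with DESeq2 160 in basal, 253 in hormone-sensing and 814 in Mmp12 Gpnmb cells. The order-of-magnitude limit left 10 in CD8 and 3 in regulatory T cells, and the upper limits gave 552 in Pi16 Dpp4 and 873 in Mmp12 Gpnmb cells. All 9 class counts stayed within 1.5 times of their value.

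No member difference was called both before and after a change of sign. Tgfbr3 in T cells (0.13) became -0.022 (RLE), -0.012 (DESeq2), -0.22 (order-of-magnitude limit) and -0.014 (upper limits), with -0.14 to 0.26 when a library was left out. Tgfbi in endothelial cells (-0.45) became 0.15 under the order-of-magnitude limit. The fitted value of Inhba in macrophages against the other classes (0.34) became -0.50 (DESeq2) and -0.78 (upper limits), with -0.36 to 1.53 without 1 library; NK cells at 0 are in that mean, so these are no folds and no direction is read from them. Tgfb3 in macrophages (-0.14) became 0.019 (upper limits), with -0.62 (without Cre+ replicate 4, adjusted p = 0.038, edgeR) to 0.0049 without 1 library. Under the upper limits the genotype difference of Inhba in macrophages (-1.41) became 0.72 and that of Tgfb2 in pericytes (1.16) became -0.059. Among the member differences reported, the block changed no call beside those given above.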
